A study of Homo sapiens with 192 samples.

Results

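The genes described here are the ERBB receptors EGFR, ERBB2 and ERBB3, the EGF-like ligands AREG, EREG, TGFA, HBEGF, BTC and EPGN, and the receptor inhibitor ERRFI1. They were chosen by name and matched to their Ensembl identifiers, which gave 10 of the 58243 genes counted. All 10 passed the filter on low counts that left 19387 genes for testing, although EPGN passed it only through its counts in HCT116. RNA sequencing had been performed on 4 established human lines of colorectal cancer (CRC), namely HCT116, HT29, LS174T and LS513. Each was cultured as a 2D layer and in 3D, with 3 libraries in each of the 8 groups. The labels name no treatment and no genetic change in any group. HCT116 cells were kept in McCoy medium and the 3 other lines in DMEM, so that the medium and the HCT116 line cannot be told apart. Each line is a single established culture of tumor cells without stroma, and how the 3D cultures used for RNA were set up is not given in the sources used here. Nothing says that the 3 libraries of a group came from separate cultures, and p-values therefore measure the spread between these libraries, which may be technical.

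ERBB receptors are tyrosine kinases of the cell membrane that pair up when an EGF-like ligand binds, and then signal through RAS and MAP kinases and through PI3 kinase and AKT. EGFR binds the 6 ligands described here, ERBB3 binds neuregulins and has little kinase activity of its own, and ERBB2 has no known ligand and acts as the favored partner of the others. The ligands are made as membrane proteins and are released by proteases, and ERRFI1 (also called MIG6) is a cytoplasmic protein that binds the kinase domain of EGFR and blocks it. In colorectal tumors EGFR is a drug target, and high AREG and EREG mRNA is known as a mark of tumors that depend on it.

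Levels are given as CPM, the usual per-library rate of counts with library sizes scaled by the TMM factors of edgeR, and as mean ± SD (n = 3 libraries) where a group is summarised. Single libraries are listed in the order of their replicate numbers, which are 1, 2 and 3, or 1, 3 and 4 for HT29 grown in 3D. A growth effect is the log2 fold change of 3D over 2D, with its standard error (SE) from the quasi-likelihood fit of edgeR. In that fit all 8 groups share 1 estimate of the spread of a gene. The SE and p of a line therefore also reflect the spread in the other lines. A gene was called when its two-sided Benjamini-Hochberg adjusted p over the 19387 tested genes was under 0.05, with no fold cutoff. With 3 libraries against 3, an exact permutation test of a single gene cannot go below p = 0.1, so that libraries that do not overlap are described without such a test. These were cell cultures measured in bulk, in which fewer cells of a kind and less RNA per cell cannot be told apart.

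Library totals lay between 18723942 and 34277421 counts, so that a floor of 3 counts corresponds to between 0.0875 and 0.160 CPM before TMM scaling. These floors cover counting error only. The epithelial markers EPCAM, CDH1, KRT8 and KRT18 had at least 494 counts in every library, whereas KRT20, CDX2, VIL1 and LGALS4 went down to 20, 28, 4 and 3 counts in some. Of the 4 leukocyte markers, CD3E was at 0 in all libraries and PTPRC reached 2 counts, whereas CD68 was called higher in 3D in the 4 lines. CD14 had from 0 to 501 counts in a library and was called higher in 3D in HT29. The summed leukocyte markers were 2.07-3.83 CPM in 2D and 5.06-6.56 CPM in 3D in LS174T, 9.20-13.5 and 36.0-47.2 in HCT116, 9.80-14.9 and 21.3-30.5 in HT29, and 18.01-20.5 and 61.7-91.9 in LS513, without overlap in any line. The 3 endothelial markers summed to at most 2.38 CPM and the 5 fibroblast markers to at most 22.1 CPM, with COL1A2 at 0 in all libraries. The part of these markers in the results below was not tested. Replicate 2 of LS174T grown in 3D lay farthest from its group mates, at a root mean square difference of 0.580 on the log2 CPM scale, against 0.354 to 0.547 for the other libraries. Several results that rest on it are given without it as well. Differences in growth effect between LS174T and a single other line were not refitted without it.

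Growth in 3D changed a part of the ERBB genes in each line, and more genes were called higher than lower in every line. Counts are given over the 9 genes other than EPGN, whose test was decided by its passing the filter through HCT116. In HT29 7 of the 9 genes were called, where 40.7% of all tested genes were, with 5 higher (21.1% of all genes) and EGFR and ERRFI1 lower (19.6%). In LS513 5 of 9 were called and all 5 were higher, against 23.6% of all genes called, 13.7% higher and 9.9% lower. In HCT116 6 of 9 were called, again all higher, against 29.1% called, 16.8% higher and 12.3% lower. In LS174T 5 of 9 were called, 4 higher and EGFR lower, against 22.2% called, 13.1% higher and 9.15% lower. All 3D libraries lay above all 2D libraries for 5 in HT29 (27.3% of all tested genes did so), 6 in LS513 (22.9%), 7 in HCT116 (22.8%) and 5 in LS174T (20.9%). They lay below them for 2 in HT29 (25.6%), 1 in LS174T (17.6%) and none in LS513 (20%) or HCT116 (17.6%). The median growth effect over the 9 genes was 0.29 in LS174T, 0.49 in LS513, 0.57 in HCT116 and 0.60 in HT29, while the median over all tested genes lay between 0.00 and 0.02.

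AREG and ERBB3 were called higher in 3D in each of the 4 lines, as were 3.14% of all tested genes. ERRFI1 was called higher in 3 lines and lower in HT29, and 2.88% of all genes were called in opposite directions in different lines. Averaged over the 4 lines with equal weight, 8 of the 9 genes were called, where 50.5% of all tested genes were. The averaged growth effect was 1.30 for HBEGF, 0.99 for AREG, 0.69 for ERBB3, 0.67 for BTC, 0.55 for ERRFI1, 0.43 for ERBB2 and 0.33 for EREG, and it was -0.49 for EGFR. TGFA was not called (0.10, SE 0.06, adjusted p = 0.19 by edgeR) unless replicate 2 of LS174T in 3D was left out (adjusted p = 0.016), and an average has no meaning for EPGN, which was near 0 in 3 lines.

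**Figure D1:**
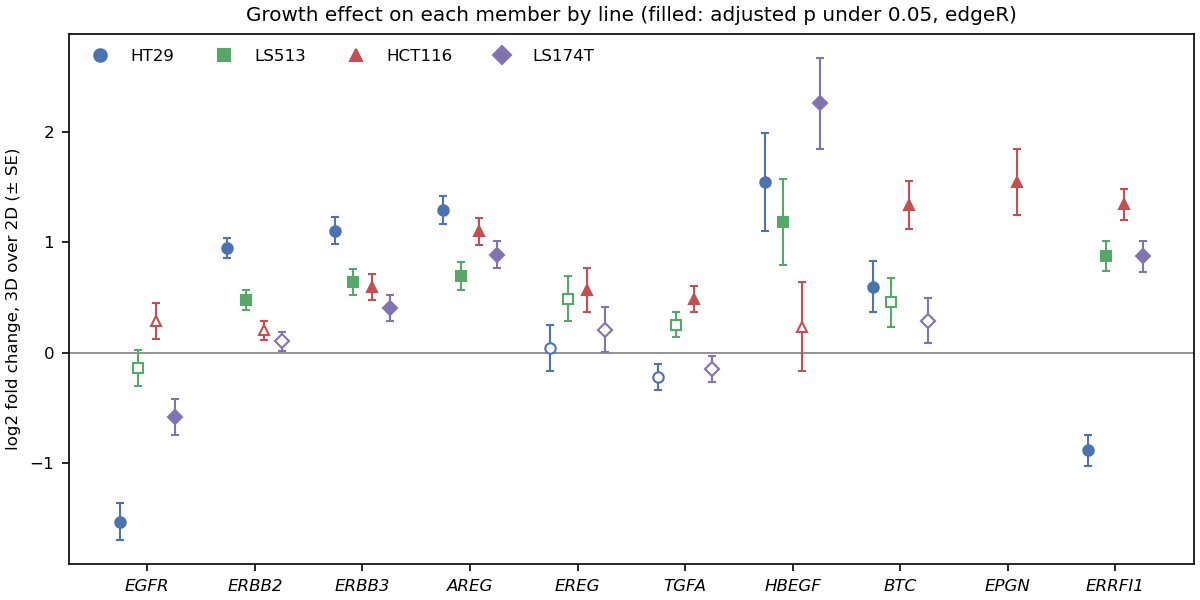
Growth effect of each gene, as log2 fold change of 3D over 2D with its SE (vertical axis), in each line, from 3 libraries a group. Filled symbols passed an adjusted p of 0.05 by edgeR, and EPGN is drawn only for HCT116 because the other lines were at or under the floor. AREG and ERBB3 lie above 0 with filled symbols in all 4 lines, whereas EGFR and ERRFI1 of HT29 lie at -1.53 and -0.88.

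The growth effect was then compared between the lines with an interaction test. It differed for 5 of the 9 genes, where 17.1% of all tested genes passed this test. These were ERRFI1 (adjusted p = 1.7e-07), EGFR (3.3e-05), ERBB2 (9.8e-05), TGFA (0.0087) and ERBB3 (0.021), all by edgeR. EPGN also passed it (0.0095), but had entered the test through HCT116 alone. The test was not passed by BTC (0.057), AREG (0.075), HBEGF (0.078) and EREG (0.47). Between pairs of lines, the growth effect of 4 genes differed between HT29 and LS513 (12.1% of all tested genes), of 4 between HT29 and HCT116 (7.76%) and of 4 between HT29 and LS174T (6.65%). EGFR, ERBB2 and ERRFI1 were among them in each of these pairs. It was called for 4 genes between HCT116 and LS174T (4.75%), namely EGFR, TGFA, HBEGF and BTC. LS513 was not told apart by edgeR from HCT116 (0 genes called and 4 at an unadjusted p under 0.05, with 4.34% of all genes called) or from LS174T (0 called and 2 unadjusted, with 3.62%).

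The receptors are described first. EGFR (ENSG00000146648, chr7:55019021-55211628 on the plus strand of GRCh38) is the receptor of the 6 ligands. In HT29 its level was 177, 175 and 163 CPM in the 2D libraries and 60.7, 50.4 and 67.8 CPM in the 3D libraries. Every 3D library lay far below every 2D library, and EGFR was 2.88-fold lower in 3D (log2 -1.53, SE 0.17, adjusted p = 3.5e-07 by edgeR). In LS174T the 2D libraries held 171, 166 and 169 CPM and the 3D libraries 123, 77.5 and 137.0 CPM. The groups did not overlap, but replicate 2 in 3D was much lower than its mates, and the fall by 0.58 (SE 0.16, adjusted p = 0.014 by edgeR) was no longer called without that library (-0.36, adjusted p = 0.12). In LS513 and in HCT116 the libraries of both growth conditions overlapped. EGFR went from 92.0 ± 3.09 to 83.9 ± 7.79 CPM in LS513 (log2 -0.13, SE 0.16, adjusted p = 0.62 by edgeR) and from 61.2 ± 14.8 to 74.8 ± 8.21 CPM in HCT116 (log2 0.29, SE 0.16, adjusted p = 0.20).

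These effects changed the order of the lines. In 2D EGFR was highest in HT29 (172 ± 7.25 CPM) and LS174T (169 ± 2.86 CPM), which did not differ from each other beyond their spread (adjusted p = 0.92 by edgeR), followed by LS513 and then HCT116, each lower than the line before it. In 3D LS174T came first at 113 ± 31.1 CPM, and HT29 came last at 59.6 ± 8.72 CPM, with LS513 and HCT116 in between. LS174T was above LS513 (adjusted p = 0.028 by edgeR), while LS513 was not told apart from HCT116 (0.39) nor HCT116 from HT29 (0.083). LS513 was 1.41-fold above HT29 (adjusted p = 0.012 by edgeR). The fall of EGFR was larger in HT29 than in LS174T by 0.94 on the log2 scale (SE 0.23, adjusted p = 0.014 for the difference, by edgeR).

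ERBB2 (ENSG00000141736, chr17:39687914-39730426, plus strand) is the receptor without a known ligand, also called HER2. Its level in HT29 was 232, 187 and 224 CPM in 2D and 435, 374 and 433 CPM in 3D. The lowest 3D library was far above the highest 2D library, at a 1.93-fold increase (log2 0.95, SE 0.09, adjusted p = 3.4e-08 by edgeR). In LS513 the libraries held 238, 223 and 254 CPM in 2D and 351, 337 and 309 CPM in 3D. The groups did not overlap here either, and the increase was 1.39-fold (log2 0.48, SE 0.09, adjusted p = 0.00034 by edgeR). ERBB2 was not called in HCT116, where it went from 119 ± 1.16 to 137 ± 8.98 CPM without overlap (log2 0.20, SE 0.09, adjusted p = 0.087 by edgeR), nor in LS174T, where it went from 259 ± 9.25 to 278 ± 16.2 CPM with overlap (log2 0.10, SE 0.09, adjusted p = 0.42). The increase was larger in HT29 than in LS513, HCT116 and LS174T by 0.47, 0.75 and 0.84 on the log2 scale (adjusted p = 0.013, 0.00027 and 0.00012 by edgeR).

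HCT116 had the lowest ERBB2 level in both growth conditions. In 2D the 3 other lines lay between 214 ± 23.7 and 259 ± 9.25 CPM, and neighbours in that order did not differ beyond their spread (adjusted p = 0.27 and 0.14 by edgeR), although the ends of it did, LS174T being 1.21-fold above HT29 (adjusted p = 0.0093). In 3D the order was HT29 (414 ± 34.8 CPM), LS513 (332 ± 21.6 CPM), LS174T and HCT116, and each line differed from the next (adjusted p at most 0.014 by edgeR). ERBB2 shares 571 exonic bases, 5.5% of its exonic length, with MIEN1 on the opposite strand and 194 with PGAP3. The kit was strand specific, but whether the counting used the strand is not stated. How reads in the shared bases were counted is therefore not known.

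ERBB3 (ENSG00000065361, chr12:56076799-56103505, plus strand), the neuregulin receptor, was called higher in 3D in all 4 lines. In HT29 its level was 248, 189 and 223 CPM in 2D and 512, 419.8 and 489 CPM in 3D, a 2.15-fold increase (log2 1.11, SE 0.12, adjusted p = 2.4e-07 by edgeR). In LS513 the libraries held 188, 172 and 204 CPM in 2D and 312, 284 and 281 CPM in 3D (log2 0.64, SE 0.12, adjusted p = 0.00035). The groups were well apart in both lines. In HCT116 the levels were 38.4, 42.5 and 41.0 CPM in 2D and 66.7, 66.0 and 51.2 CPM in 3D (log2 0.59, SE 0.12, adjusted p = 0.00071 by edgeR). In LS174T they were 214, 259 and 245 CPM in 2D and 335, 274 and 344 CPM in 3D (log2 0.41, SE 0.12, adjusted p = 0.016 by edgeR). The groups were again apart, although in LS174T the lowest 3D library was close to the highest 2D library, and that call was lost without replicate 1 of either growth condition (adjusted p up to 0.086).

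HCT116 stood far below the other lines in ERBB3. It held 40.6 ± 2.05 CPM in 2D, where LS513, the next line above it, was 4.63-fold higher (adjusted p = 1.0e-13 by edgeR), and 61.3 ± 8.78 CPM in 3D, where LS513 was 4.77-fold higher (adjusted p = 7.1e-14). In 2D LS174T was not told apart from HT29 (adjusted p = 0.38 by edgeR) nor HT29 from LS513 (0.099), but LS174T was 1.27-fold above LS513 (0.014). In 3D HT29 came first at 474 ± 47.9 CPM, above LS174T at 317 ± 38.0 CPM (adjusted p = 0.00014 by edgeR). ERBB3 shares 31 exonic bases with AC034102.2 on the same strand, where reads cannot be told apart. ERBB4, the remaining receptor of the family, had at most 5 counts in any library and was not tested.

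The ratio of the ERBB3 to the EGFR level, both per kilobase of exonic length, moved most in HT29. The geometric mean ratio was 1.77 in 2D and 11.0 in 3D in HT29, 2.82 and 4.83 in LS513, and 1.96 and 4.00 in LS174T, with no overlap between growth conditions in these lines. In HCT116 it was 0.938 in 2D and 1.13 in 3D, and the libraries overlapped. On this scale EGFR made up 23.4 ± 2.5% of the 3 receptors' summed level in HT29 grown in 2D and 4.88 ± 0.39% in 3D. The summed receptor level per kilobase was 58.8 ± 5.48 in 2D and 97.3 ± 9.22 in 3D in HT29, against 20.9 ± 0.979 and 26.0 ± 2.16 in HCT116, the lowest of the lines. By group means ERBB2 came first with either length in HCT116 and in LS513 grown in 2D. In the other groups the order of ERBB2 and ERBB3 depended on the length used, with ERBB3 first over all exons. The longest transcript in place of all exons lowers the length of ERBB2 from 10321 to 4792 bases. With it ERBB2 came first in all 8 groups.

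**Figure D2:**
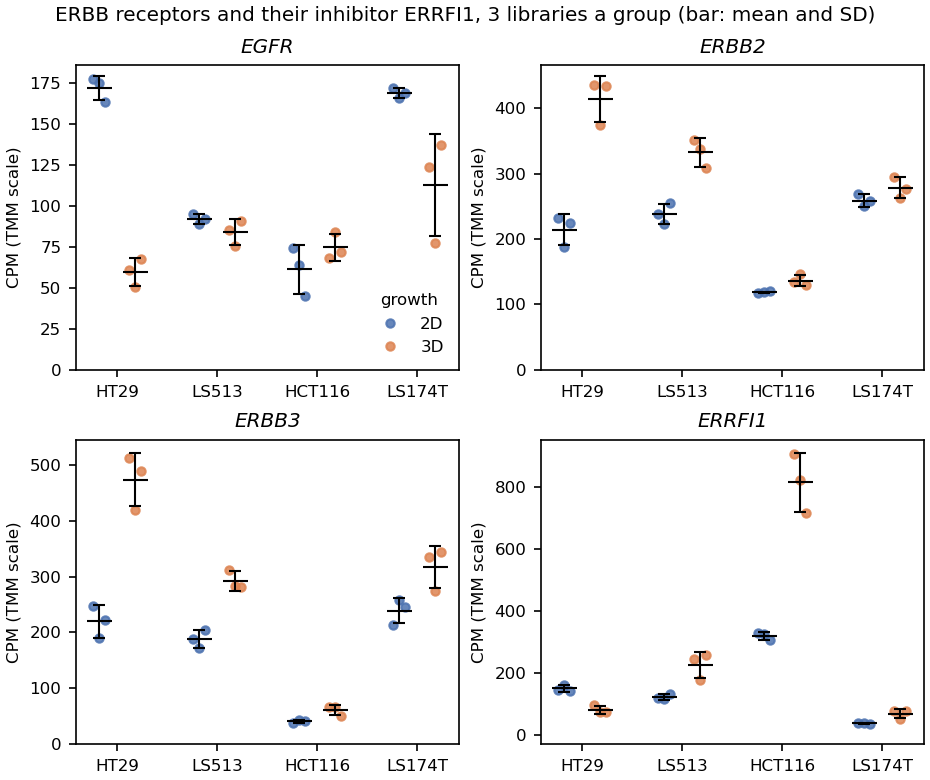
Levels of EGFR, ERBB2, ERBB3 and ERRFI1 in CPM on the TMM scale (vertical axis, linear and starting at 0) for each library of the 4 lines in 2D and 3D. Points are the 3 libraries of a group and bars are mean and SD. EGFR of HT29 fell from 172 to 59.6 CPM while its ERBB2 and ERBB3 rose, and ERRFI1 of HCT116 reached 817 CPM in 3D.

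Among the ligands, AREG (amphiregulin, ENSG00000109321, chr4:74445134-74455009, plus strand) rose in 3D in each line. In HT29 its level was 19.99, 22.9 and 24.8 CPM in 2D and 52.8, 57.6 and 54.8 CPM in 3D, a 2.45-fold increase (log2 1.29, SE 0.13, adjusted p = 8.9e-08 by edgeR). In HCT116 it was 139, 143 and 163 CPM in 2D and 364, 296 and 293 CPM in 3D, a 2.14-fold increase (log2 1.10, SE 0.12, adjusted p = 7.0e-07). In both lines the growth conditions were far apart. In LS174T the libraries held 73.4, 67.3 and 63.4 CPM in 2D and 127, 145 and 106 CPM in 3D (log2 0.89, SE 0.12, adjusted p = 2.5e-05 by edgeR). In LS513 they held 91.3, 94.05 and 106 CPM in 2D and 157, 132 and 182 CPM in 3D (log2 0.69, SE 0.12, adjusted p = 0.00023 by edgeR). No 2D library reached a 3D library of the same line, and each of these 4 calls held when any library of the line was left out.

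The highest and the lowest line differed in AREG by 6.58-fold in 2D and 5.77-fold in 3D, more than the growth conditions of any line did. LS513 and LS174T differed less than that, by 1.43-fold in 2D and 1.25-fold in 3D. Differences between lines and between growth conditions were not tested against each other. HCT116 was highest and HT29 lowest in both conditions, with LS513 above LS174T in between, and each line differed from the next in 2D (adjusted p at most 0.0010 by edgeR) and in 3D (at most 0.027). In 2D HCT116 held 148 ± 13.0 CPM and HT29 22.6 ± 2.43 CPM, and in 3D they held 318 ± 40.1 and 55.1 ± 2.41 CPM. The growth effect was larger in HT29 than in LS513 by 0.60 (SE 0.18, adjusted p = 0.028 for that pair by edgeR), but the test over the 4 lines together was not passed.

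EREG (epiregulin, ENSG00000124882, chr4:74365143-74388751, plus strand), a ligand of EGFR and ERBB4, was called in HCT116. Its level there was 365, 389.8 and 315 CPM in 2D and 512, 492 and 583 CPM in 3D. The groups did not overlap, and the increase was 1.48-fold (log2 0.57, SE 0.20, adjusted p = 0.035 by edgeR), but the call was lost when any of the 6 libraries was left out (adjusted p 0.056 to 0.13). In LS174T the libraries were tight, at 102 ± 1.53 CPM in 2D and 118 ± 0.451 CPM in 3D, and did not overlap. The model, whose spread is shared by all groups, gave an SE of 0.20 around a log2 of 0.21 (adjusted p = 0.48 by edgeR). In HT29 EREG was 36.3 ± 5.78 and 37.3 ± 10.8 CPM (log2 0.04, SE 0.21, adjusted p = 0.93). In LS513 it was 33.2 ± 4.14 and 46.6 ± 19.4 CPM (log2 0.49, SE 0.21, adjusted p = 0.089 by edgeR), with replicate 2 at 29.3 CPM in 3D against 42.9 and 67.5 CPM in its mates. Without that library the effect in LS513 was called (log2 0.73, adjusted p = 0.0094). That the effect differed between lines was not shown (interaction adjusted p = 0.47 by edgeR).

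By line, EREG followed an order of its own. HCT116 was 3.48-fold above LS174T in 2D and 4.47-fold in 3D (adjusted p = 4.6e-08 and 2.6e-09 by edgeR), and LS174T was above HT29 and LS513, which did not differ from each other in either condition (adjusted p = 0.63 and 0.18).

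TGFA (transforming growth factor alpha, ENSG00000163235, chr2:70447280-70554193, minus strand) had the smallest growth effect of the ligands on the average over lines (0.10), in which effects of opposite sign cancel, but not in each line. In HCT116 its level was 59.0, 57.8 and 54.2 CPM in 2D and 80.5, 74.2 and 84.8 CPM in 3D, without overlap (log2 0.49, SE 0.12, adjusted p = 0.0033 by edgeR). In LS513 the libraries did not overlap either, at 105 ± 5.88 CPM in 2D and 126 ± 11.0 CPM in 3D, but TGFA was not called (log2 0.26, SE 0.12, adjusted p = 0.12). In HT29 and LS174T the growth conditions overlapped, with 90.5 ± 9.89 and 78.0 ± 8.92 CPM in HT29 (log2 -0.21, SE 0.12, adjusted p = 0.15 by edgeR) and 33.2 ± 1.497 and 30.1 ± 5.87 CPM in LS174T (log2 -0.14, SE 0.12, adjusted p = 0.41). The effect in HCT116 exceeded that in HT29 by 0.70 (adjusted p = 0.0083 by edgeR) and that in LS174T by 0.63 (adjusted p = 0.028). LS513 had the most TGFA in 3D and LS174T the least in both conditions, and LS513 was not distinguishable from HT29 in 2D (adjusted p = 0.11).

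HBEGF (heparin-binding EGF-like growth factor, ENSG00000113070, chr5:140332843-140346631, minus strand) showed the largest increase and the largest spread. In LS174T its level was 8.46, 7.16 and 7.37 CPM in 2D and 33.3, 59.5 and 17.3 CPM in 3D. The 3D libraries were all above the 2D libraries but differed widely from each other, at a 4.78-fold increase (log2 2.26, SE 0.41, adjusted p = 0.00066 by edgeR), which was called with any library left out (log2 1.74 to 2.595). In LS513 the libraries were 16.5, 17.3 and 17.96 CPM in 2D and 38.9, 41.2 and 37.3 CPM in 3D. They were tight and well apart (log2 1.18, SE 0.39 from the spread shared by all groups, adjusted p = 0.033 by edgeR). The call was lost when any of the 6 was left out (adjusted p 0.052 to 0.10), but was kept in a fit of LS513 alone. In HT29 the levels were 3.91, 4.06 and 2.85 CPM in 2D and 5.61, 21.6 and 4.79 CPM in 3D. The increase (log2 1.54, SE 0.44, adjusted p = 0.0084 by edgeR) rested on replicate 3 in 3D, and without it was 0.56 (adjusted p = 0.18), although the 2 remaining libraries also lay above those in 2D. In HCT116 HBEGF went from 10.5 ± 0.574 to 12.4 ± 1.51 CPM with overlap (log2 0.24, SE 0.40, adjusted p = 0.72 by edgeR), and of the pairs of lines only HCT116 and LS174T differed in the effect (by 2.02, SE 0.57, adjusted p = 0.044).

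BTC (betacellulin, ENSG00000174808, chr4:74744759-74794686, minus strand), a ligand of EGFR and ERBB4, was scarce. In HCT116 it held 2.75, 2.73 and 2.181 CPM in 2D and 6.81, 6.30 and 6.28 CPM in 3D, from 68 to 95 and from 188 to 205 counts. The groups were far apart, at a 2.53-fold increase (log2 1.34, SE 0.22, adjusted p = 7.9e-05 by edgeR). In HT29 it held 2.19, 1.79 and 2.57 CPM in 2D and 3.47, 2.80 and 3.55 CPM in 3D. These groups lay close without overlap (log2 0.60, SE 0.23, adjusted p = 0.042 by edgeR), and the call was lost without replicate 1 or 2 in 2D or replicate 1 or 4 in 3D (adjusted p up to 0.14). In LS513 and LS174T the libraries overlapped and BTC was not called (log2 0.46, SE 0.22, adjusted p = 0.14 and log2 0.29, SE 0.20, adjusted p = 0.32, by edgeR). Without replicate 2 in 3D, its lowest 3D library, LS513 was called (log2 0.66, adjusted p = 0.048). LS174T had the most BTC in 2D, 6.07 ± 0.183 CPM, 2.23-fold above LS513 (adjusted p = 6.0e-05 by edgeR), while in 3D it did not differ from HCT116 (adjusted p = 0.41).

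EPGN (epigen, ENSG00000182585, chr4:74308473-74315307, plus strand) was detected above the floor in HCT116 alone. Its libraries there had 32, 18 and 24 counts in 2D and 56, 68 and 75 counts in 3D, or 0.966, 0.517 and 0.770 CPM and 1.86, 2.22 and 2.51 CPM. The groups did not overlap, at a 2.92-fold increase (log2 1.55, SE 0.30, adjusted p = 0.0013 by edgeR). HT29 had 2 counts in each 2D library and 0 in each 3D library. This difference was called (adjusted p = 0.010 by edgeR), but it lies under the floor of 3 counts, so no fold is given. LS174T had at most 1 count in a library and LS513 none, so that EPGN was not detectable there at this depth.

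**Figure D3:**
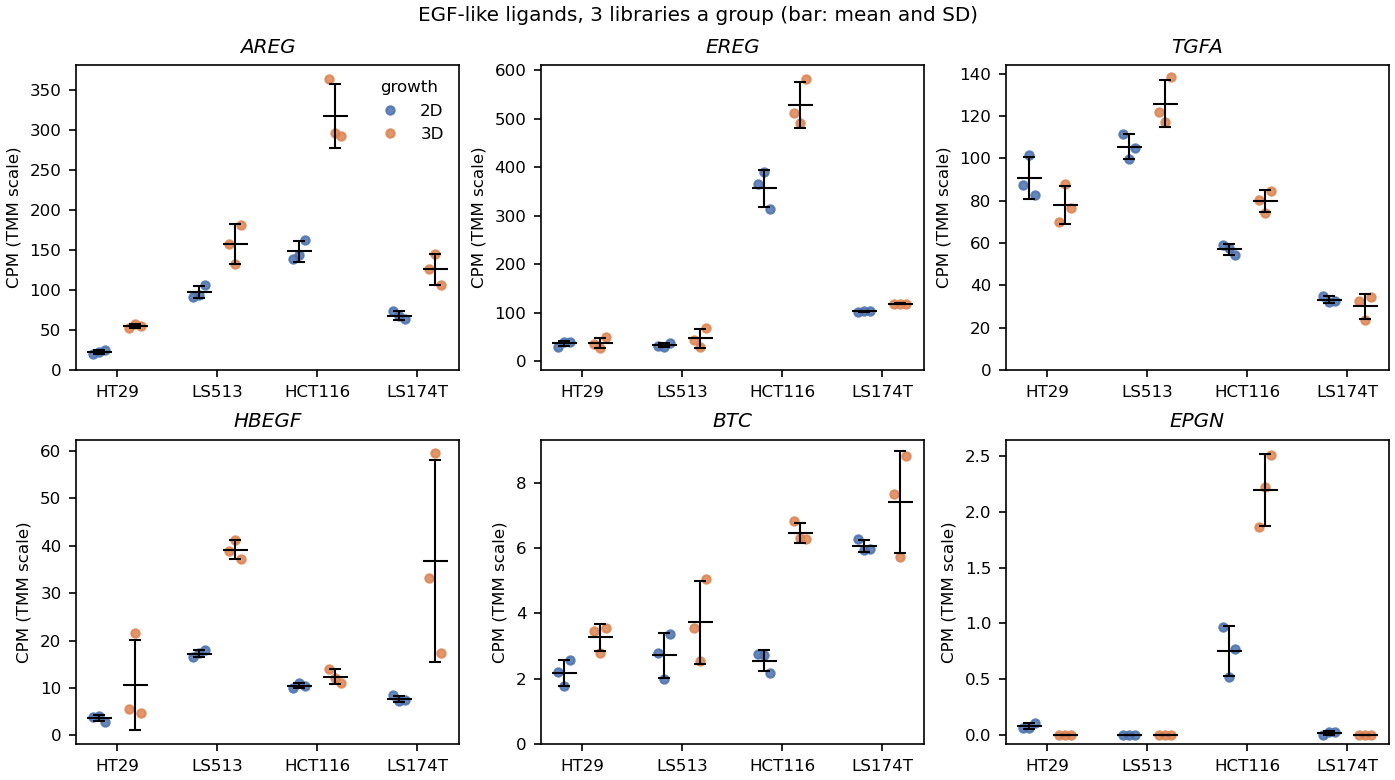
Levels of AREG, EREG, TGFA, HBEGF, BTC and EPGN in CPM on the TMM scale (vertical axis, linear) for each library of the 4 lines in 2D and 3D. Points are the 3 libraries of a group and bars are mean and SD. AREG lies higher in 3D in every line, the HBEGF mean of HT29 in 3D is drawn up by a library at 21.6 CPM, and EPGN is above the floor in HCT116 alone.

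Per kilobase of exonic length, which allows the ligands to be compared with each other, AREG came first in every group but HT29 grown in 2D. There TGFA made up 45.3 ± 3.8% of the summed level of the 6 ligands and AREG 34.0 ± 2.7%. In 3D the order in HT29 was turned, with AREG at 55.5 ± 2.3% and TGFA at 26.0 ± 0.79%, and on this length AREG and TGFA kept this order in all 3 libraries of each condition. With the longest transcript as length, replicate 3 in 2D had AREG first (39.9% against 38.2%). In HCT116 AREG and EREG together made up most of the sum, with 53.3 ± 4.4% and 37.0 ± 4.0% in 2D and 62.3 ± 3.8% and 30.1 ± 3.4% in 3D. In LS174T HBEGF went from 3.59 ± 0.19% to 9.88 ± 4.5% while TGFA went from 9.49 ± 0.23% to 5.30 ± 1.7%. HBEGF was above TGFA in replicates 1 (9.36% against 5.56%) and 2 (14.6% against 3.48%) in 3D and below it in replicate 3 (5.69% against 6.85%). The summed ligand level per kilobase was 169 ± 3.54 in 2D and 309 ± 23.6 in 3D in HCT116, 92.6 ± 5.69 and 143 ± 20.3 in LS513, 70.6 ± 3.32 and 118 ± 17.2 in LS174T, and 40.3 ± 3.08 and 60.4 ± 5.12 in HT29. HCT116, which had the least receptor mRNA on this scale, had the most ligand mRNA in both growth conditions. By group means the first ligand was the same with the longest transcript as length.

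**Figure D4:**
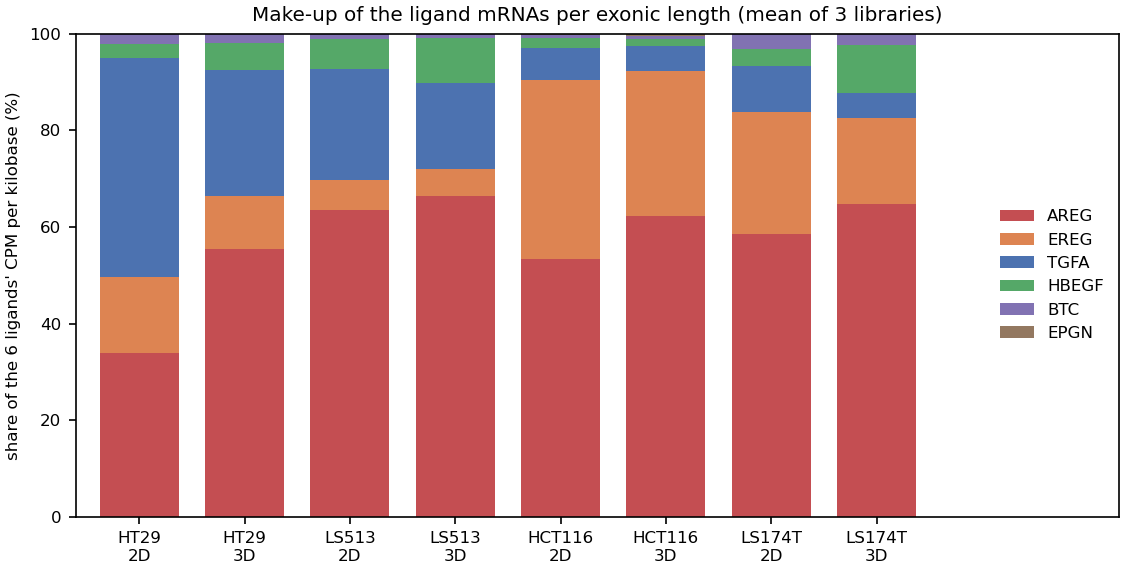
Share of each ligand in the summed CPM per kilobase of the 6 ligands (vertical axis, percent, mean of 3 libraries) in the 8 groups. AREG takes the largest share in every group except HT29 in 2D, where TGFA holds 45.3%, and EREG is large in HCT116 and LS174T.

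EPGN, EREG, AREG and BTC are neighbours on chromosome 4, within 486.2 kb, and the first 3 are read in the same direction. In HCT116 the 4 genes were all called higher in 3D, beside 16.8% of all tested genes. EPGN is among them although it was tested only because it passed the filter through HCT116. The EREG call there did not hold with any library left out. In the other lines AREG was called in each, and BTC in HT29. In LS513 the growth effects of AREG, EREG and BTC were 0.69, 0.49 and 0.46, the last 2 not called. The interaction test did not show a difference between lines for AREG, EREG or BTC. The bases upstream of the 3 genes read in the same direction are shown because they are neighbours whose levels were all higher in 3D in HCT116. They are the RefSeq sequences of GRCh38.p14, chr4:74444886-74445133 for AREG, chr4:74364895-74365142 for EREG and chr4:74308220-74308469 for EPGN, all on the plus strand and ending within 3 bases of the RefSeq start. Capitals mark the TATA box motif TATAAA and the palindromic cAMP response element TGACGTCA.
AREG: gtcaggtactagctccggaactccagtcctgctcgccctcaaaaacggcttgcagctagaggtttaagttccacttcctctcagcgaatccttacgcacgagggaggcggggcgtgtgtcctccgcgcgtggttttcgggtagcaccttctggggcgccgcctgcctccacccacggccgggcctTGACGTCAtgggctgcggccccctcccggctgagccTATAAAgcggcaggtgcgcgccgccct
EREG: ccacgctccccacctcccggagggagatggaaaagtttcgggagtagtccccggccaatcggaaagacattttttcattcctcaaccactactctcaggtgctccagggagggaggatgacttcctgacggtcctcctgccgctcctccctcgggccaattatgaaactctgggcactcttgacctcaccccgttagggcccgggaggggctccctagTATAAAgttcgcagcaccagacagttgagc
EPGN: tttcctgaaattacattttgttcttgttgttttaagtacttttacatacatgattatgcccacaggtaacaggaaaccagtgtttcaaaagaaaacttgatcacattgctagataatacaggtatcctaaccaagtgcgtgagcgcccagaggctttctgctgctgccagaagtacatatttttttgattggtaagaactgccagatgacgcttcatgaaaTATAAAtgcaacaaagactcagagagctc

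TATAAA began 29 bases before the RefSeq start in AREG, 32 before it in EREG and 29 before it in EPGN. The RefSeq table holds 11 windows of 300 bases, from 250 before to 50 after a start, for 9 of the 10 genes, with no entry for ERBB3. On either strand TATAAA was in 11.5% of all 35116 windows, and among the other ERBB genes it was found only in the window of a second, downstream start of EGFR. TGACGTCA was in 1.85% of all windows and in that of AREG alone among these genes, 65 bases before the start. Of the 3 other motifs searched, TGANTCA (AP-1, 7.71% of windows) was in the ERBB2 window and that of the second EGFR start, GGAATG (TEAD, 14.0%) in the EREG window and that of the second EGFR start, and GGGCGG (SP, 45.0%) in windows of ERRFI1, TGFA, AREG, BTC, HBEGF and EGFR. These are matches of letters in a window, and binding was not measured.

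**Figure D5:**
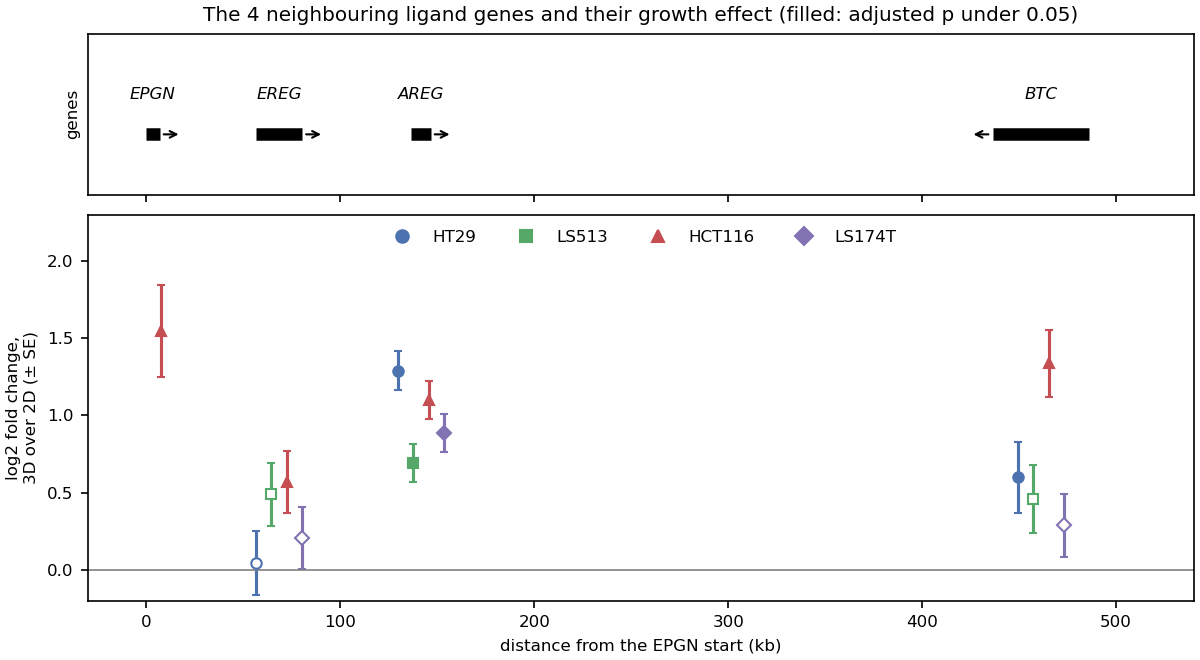
Upper part: EPGN, EREG, AREG and BTC drawn to scale by their distance from the EPGN start in kb (horizontal axis), with arrows for the direction of transcription. Lower part: their growth effect (log2 fold change of 3D over 2D with SE, vertical axis) in each line, filled where the adjusted p was under 0.05. All 4 genes are filled for HCT116, and AREG is the gene that is filled for all 4 lines.

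ERRFI1 (ENSG00000116285, chr1:8004404-8026308, minus strand), the inhibitor of EGFR, is itself induced by EGF signaling and by stress. In HCT116 its level was 330.4, 327 and 307 CPM in 2D and 908, 823 and 719 CPM in 3D, a 2.54-fold increase (log2 1.35, SE 0.14, adjusted p = 2.3e-07 by edgeR). In LS513 it was 119.98, 118 and 135 CPM in 2D and 245, 179.6 and 259 CPM in 3D (log2 0.88, SE 0.14, adjusted p = 7.0e-05). In both lines every 3D library was above every 2D library. In LS174T it was 39.1, 39.3 and 36.95 CPM in 2D and 79.5, 53.6 and 77.9 CPM in 3D, without overlap and with replicate 2 in 3D again the lowest (log2 0.87, SE 0.14, adjusted p = 0.00015 by edgeR). HT29 went the other way, from 148, 164 and 142 CPM in 2D to 96.2, 73.7 and 76.4 CPM in 3D, also without overlap, a 1.84-fold decrease (log2 -0.88, SE 0.14, adjusted p = 3.7e-05 by edgeR). The growth effect in HT29 was lower than in LS513, HCT116 and LS174T by 1.76, 2.22 and 1.75 on the log2 scale (adjusted p = 1.8e-06, 1.2e-07 and 6.7e-06 by edgeR), and the other pairs of lines did not pass the test.

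HCT116 had the most ERRFI1 in 2D, 2.13-fold above HT29 (adjusted p = 2.7e-07 by edgeR), and in 3D, 3.58-fold above LS513 (adjusted p = 4.2e-11). LS174T had the least, at 38.5 ± 1.31 CPM in 2D and 70.3 ± 14.5 CPM in 3D, where it did not differ from HT29 at 82.1 ± 12.3 CPM (adjusted p = 0.17 by edgeR). Per kilobase, the ratio of ERRFI1 to EGFR was higher in 3D than in 2D in every line, with no overlap of libraries. It was 2.63 in 2D and 4.12 in 3D in HT29, in which both genes fell, 0.682 and 1.89 in LS174T, 4.03 and 8.05 in LS513, and 16.0 and 32.6 in HCT116. ERRFI1 shares 155 exonic bases with AL034417.4 on the opposite strand, which had 2 to 27 counts in a library, and EGFR shares 186 with EGFR-AS1, which had at most 2.

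Each of the 9 genes other than EPGN differed between the lines in 2D and in 3D, as did 91.7% of all tested genes in each condition. Of their 54 pairs of lines, 41 were called in 2D and 44 in 3D by edgeR. In 2D these were 8 genes between HT29 and HCT116 (68.8% of all tested genes), 8 between HCT116 and LS174T (68.3%), 8 between LS513 and LS174T (57.6%), 7 between LS513 and HCT116 (68.3%), 7 between HT29 and LS174T (64.6%) and 3 between HT29 and LS513 (60.6%). In 3D they were 8 between HCT116 and LS174T (67.2%), 8 between LS513 and HCT116 (68.5%), 8 between HT29 and LS174T (65.5%), 7 between LS513 and LS174T (60.9%), 7 between HT29 and LS513 (61.9%) and 6 between HT29 and HCT116 (68.5%).

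The genes whose levels ran closest to each ERBB gene were found over the 24 libraries, by the root mean square difference of log2 CPM after each gene was centred on its own mean. The closest gene lay at 0.18 from ERBB2 (TECPR1), 0.23 from TGFA (ESRP2), 0.25 from EGFR (MYO9A) and 0.29 from AREG (CLYBL). The next closest were ORMDL2 for ERBB2, PEA15 for TGFA, NRP1 for EGFR and SLC27A1 for AREG, at 0.21, 0.24, 0.30 and 0.37. For ERBB3 these were TMEM238 and GATA2-AS1 (0.34 and 0.36), for BTC NEK6 and RWDD2A (0.35 each), for ERRFI1 EZR and PYGL (0.41 and 0.50) and for HBEGF SNHG5 and RBKS (0.55 and 0.56). For EREG they were H3F3BP1 and SMIM10L2B (0.36 and 0.45), the first a pseudogene that can share reads with its parent gene, and for EPGN LINC01303 and CD22 (0.43 and 0.46), where most libraries are near 0. The spread of an ERBB gene around its own mean on the same scale was between 0.57 for ERBB2 and 1.86 for EPGN. Libraries of a line share their level, and these distances carry no test.

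The wider pathway was described with 67 further genes in 5 lists, of which 64 were tested. The shares of all tested genes called higher and lower, to be read beside each count, were 21.1% and 19.6% in HT29, 13.7% and 9.9% in LS513, 16.8% and 12.3% in HCT116, and 13.1% and 9.15% in LS174T. In HT29 8 of these were called higher in 3D and 21 lower, or 45.3% against 40.7% of all tested genes. In LS513 it was 16 higher and 6 lower (34.4% against 23.6%), in HCT116 9 higher and 9 lower (28.1% against 29.1%), and in LS174T 6 higher and 10 lower (25.0% against 22.2%). Taken in either direction, the shares in HCT116, LS174T and HT29 were near the background. By direction HT29 had more of the 64 genes lower (21) than higher (8), where the shares of all tested genes were 19.6% and 21.1%. The 22 calls in LS513 fell to between 10 and 14 without any of its 2D libraries or without replicate 1 or 2 in 3D. The 16 in LS174T fell to 9 without replicate 2 in 2D and to 7 without replicate 3 in 2D or replicate 2 in 3D, and became 28 without replicate 3 in 3D.

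Of the genes for ligand release, the proteases and their partners, 1 of 9 tested was called higher and 3 lower in HT29, 3 higher in LS513, 2 higher in HCT116 and 1 lower in LS174T. These are 44.4%, 33.3%, 22.2% and 11.1% of the list, beside 40.7%, 23.6%, 29.1% and 22.2% of all tested genes. ADAM9, a membrane protease, fell in HT29 from 300.4 ± 39.1 to 151 ± 26.7 CPM (log2 -0.99, SE 0.15, adjusted p = 1.7e-05 by edgeR). ADAM17, the main sheddase of AREG and TGFA, went from 55.7 to 44.2 CPM in HT29 (log2 -0.33, adjusted p = 0.014) and was not called in the other lines. The rhomboid protease RHBDL2 rose in LS513 from 1.58 ± 0.552 to 4.30 ± 0.214 CPM (log2 1.44, SE 0.23, adjusted p = 0.00011 by edgeR) and in HT29 from 13.4 ± 3.74 to 31.5 ± 3.72 CPM (log2 1.24, SE 0.20, adjusted p = 4.8e-05). RHBDF1, a partner of ADAM17, rose in HCT116 from 6.96 ± 1.45 to 10.6 ± 2.70 CPM (log2 0.60, SE 0.17, adjusted p = 0.011), and TIMP3, an inhibitor of ADAM17, fell in LS174T from 1.15 ± 0.307 to 0.320 ± 0.0583 CPM (log2 -1.81, SE 0.34, adjusted p = 0.0011).

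Of the 25 adaptors and transducers, 2 were called higher and 6 lower in HT29, 6 and 2 in LS513, 4 and 3 in HCT116, and 1 and 4 in LS174T. The list's shares of 32%, 32%, 28% and 20% stand beside 40.7%, 23.6%, 29.1% and 22.2% of all genes. MAPK3, the kinase ERK1, rose in HT29 from 41.6 ± 1.90 to 91.1 ± 1.81 CPM (log2 1.13, SE 0.09, adjusted p = 7.1e-09 by edgeR), and also in LS513 (log2 0.78, SE 0.09, adjusted p = 1.4e-06) and HCT116 (log2 0.64, SE 0.09, adjusted p = 2.3e-05).

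Of the 16 genes of receptor attenuation and traffic, 2 were called higher and 7 lower in HT29, 4 and 3 in LS513, 2 and 3 in HCT116, and 1 and 3 in LS174T. That is 56.2%, 43.8%, 31.2% and 25% of the list, with 40.7%, 23.6%, 29.1% and 22.2% over all genes. SH3KBP1, an adaptor of receptor uptake, fell in HT29 from 217 ± 28.7 to 102 ± 8.78 CPM (log2 -1.09, SE 0.09, adjusted p = 8.0e-09 by edgeR). CBLC, an epithelial ubiquitin ligase, rose in LS513 (log2 0.79, SE 0.14, adjusted p = 0.00024) and LS174T (log2 0.80, SE 0.14, adjusted p = 0.00041), and was called higher in HT29 and HCT116 too (log2 0.56 and 0.65, adjusted p = 0.0029 and 0.0018). SOCS4, which lowers EGFR signaling, fell in HCT116 from 31.4 ± 5.38 to 17.3 ± 2.06 CPM (log2 -0.86, SE 0.19, adjusted p = 0.0017), and was called lower in HT29, LS513 and LS174T too (log2 -1.02, -1.01 and -0.76, adjusted p = 0.00026, 0.00054 and 0.0074).

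Of the 10 genes known as transcriptional output of MAP kinase signaling, 3 were called higher and 5 lower in HT29, 2 and 1 in LS513, 1 and 3 in HCT116, and 3 and 2 in LS174T. In the same order this is 80%, 30%, 40% and 50% of only 10 genes, with 40.7%, 23.6%, 29.1% and 22.2% over all genes. PHLDA1 fell in HT29 from 226 ± 16.7 to 91.5 ± 7.87 CPM (log2 -1.30, SE 0.13, adjusted p = 9.3e-08 by edgeR), together with CCND1 (log2 -1.15, adjusted p = 5.6e-07), EPHA2, ETV5 and DUSP4, while DUSP6, SPRY2 and ETV4 were called higher. ETV4, a transcription factor of the ETS family, rose in LS174T from 112 ± 5.52 to 246 ± 14.2 CPM (log2 1.13, SE 0.08, adjusted p = 2.8e-09). EPHA2 rose in LS513 (log2 0.46, SE 0.12, adjusted p = 0.0074) and DUSP4, a MAP kinase phosphatase, in HCT116 (log2 0.48, SE 0.10, adjusted p = 0.0011).

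The other genes of the family, EGF and the neuregulins, were low. EGF itself was highest in LS174T, at 12.5 CPM in 2D and 12.4 CPM in 3D (log2 -0.01, adjusted p = 1.0 by edgeR), and was at most 0.994 CPM on average in the other lines. NRG4, a ligand of ERBB4, averaged 2.26 CPM in HCT116 grown in 2D. Its calls in LS513 and LS174T rest on mean levels in 3D of 0.0585 ± 0.0202 and 0.0511 ± 0.0638 CPM, which are under the CPM of the floor. NRG1 and NRG2, the ligand genes of ERBB3 and ERBB4, were called in no line by edgeR and reached at most 0.997 and 1.54 CPM in a library, and NRG3 was not tested.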

How the data were processed

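Poly(A) RNA was sequenced as single reads from 24 libraries of 4 CRC lines. Raw gene counts were deposited by the authors separately for every technical replicate, and had been made with Trim Galore 0.4.1, STAR and HTSeq 0.5.3 after removal of reads that aligned more than once. The option of HTSeq for strand is not given in the sources used here. The 191 sets of counts were summed to 24 libraries, each from 8 technical replicates except replicate 4 of HT29 grown in 3D, of which 7 were used and 1 that the labels list was not analysed here. No 2 libraries held identical counts. The processing notes name hg19 and the methods Ensembl 91, and 57980 of the 58243 identifiers matched GENCODE 29, so that positions are given on GRCh38. Lengths are the union of a gene's exons.

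All 24 libraries were fitted with edgeR 4.0.16 (R 4.3.3): filterByExpr, TMM, a robust quasi-likelihood fit with 1 coefficient for each of the 8 groups, and Benjamini-Hochberg adjustment. The code was tested on simulated data. Library totals of 18723942 to 34277421 counts set the precision. Alternatives used DESeq2 1.42.0, limma 3.58.1, no filter, 1 line at a time, other cutoffs, a replicate block and each library left out. Groups and replicate numbers came from the labels. Genes were named by a rule: the 10 ERBB genes, overlapping genes, the 2 genes closest to each, and the called gene with the smallest p of each pathway list and line, of which 1 result is not reported here. ADAM17, CBLC, SOCS4 and RHBDL2 in further lines, CCND1, other MAP kinase output genes, EGF and the neuregulins were named after their values were seen. The genes and lists were chosen with earlier results of these data known.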

Additional observations from a re-analysis of the deposited data

Results flagged for a closer look

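The growth effect differed between the 4 lines for 5 of the 9 genes other than EPGN by the interaction test of edgeR, against 17.1% of all tested genes. For ERRFI1 the adjusted p was 1.7e-07, with growth effects (log2) of -0.88, 0.88, 1.35 and 0.87 for HT29, LS513, HCT116 and LS174T, and it stayed at or under 4.0e-06 with any of the 24 libraries left out. For EGFR it was 3.3e-05, with -1.53, -0.13, 0.29 and -0.58 in the same order, and at most 0.00038 with a library left out. For ERBB2 it was 9.8e-05, with 0.95, 0.48, 0.20 and 0.10, and at most 0.00051. For TGFA it was 0.0087, with -0.21, 0.26, 0.49 and -0.14, and at most 0.035. For EPGN, tested only because HCT116 passed the filter, it was 0.0095, which rests on HCT116 and on 2 counts in each 2D library of HT29, the other libraries having at most 1. For ERBB3 it was 0.021, with increases of 1.11, 0.64, 0.59 and 0.41, and it was called in 22 of the 24 fits with a library left out (adjusted p up to 0.071).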

How the results depend on the processing

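With the size factors of DESeq2 and with the test of DESeq2, 39 of 39 growth effects of the ERBB genes kept their direction and their side of the threshold, and without the filter 38 did, EREG in LS513 being called in addition (adjusted p = 0.00081 by edgeR). Without the filter 9 genes, in place of 6, passed the interaction test of edgeR, with AREG (0.015), BTC (0.0305) and HBEGF (1.3e-17) added. In that fit the adjusted p was also far lower for EGFR (1.0e-22) and ERRFI1 (2.8e-40) than with the filter. By the F test of limma voom, with the filter, AREG (0.096), BTC (0.089) and HBEGF (0.22) were not called. With the cutoffs of the study (log2 under -0.5 or over 1.5), which by their construction leave out smaller changes, 4 ERBB genes were called in HT29, 0 in LS513 (5 at an adjusted p under 0.05 by edgeR and by DESeq2), 1 in HCT116 and 2 in LS174T, and 16, 5, 2 and 6 pathway genes. EPGN is counted here. It was the gene called in HCT116 (log2 1.55), and in HT29 it lay under the floor. The share of all tested genes passing these cutoffs was not computed. In a fit of the 6 libraries of LS174T alone, 3 ERBB genes and 4 pathway genes were called. In fits of 1 line, HBEGF in HT29 (adjusted p = 0.13), EGFR (0.093) and ERBB3 (0.078) in LS174T lost their call and TGFA in LS513 gained it (0.047). The cause was not tested.

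Counts here include EPGN. For these refits, and for those with a replicate block or of 1 line, the share of all tested genes called was not computed. Leaving out each library in turn gave 7 to 8 ERBB genes called in HT29, 4 to 6 in LS513, 6 in HCT116 and 4 to 5 in LS174T, and 23 to 27, 10 to 24, 12 to 19 and 7 to 28 pathway genes. It gave 8 to 9 genes averaged over lines, 5 to 8 for the interaction, 10 for the levels in each condition, 42 to 47 pairs of lines in 2D and 44 to 48 in 3D. The pathway count was 11 in LS513 without replicate 2 in 3D and 7 in LS174T without replicate 2 in 3D. Effects of 2 genes that were not called changed sign: EREG in HT29 without replicate 1 in 2D or replicate 4 in 3D (-0.16 to 0.26 over the 6 fits), and TGFA in LS174T without replicate 2 in 3D (-0.25 to 0.017 over the 6 fits).

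Same-numbered 2D and 3D libraries did not deviate together (correlations of -0.146 to 0.0938), so the numbers were not taken as pairs. With a replicate block, 36 of 39 effects kept their call, BTC in HT29 (log2 0.41, adjusted p = 0.20) and EPGN in HT29 lost it, and EREG in HT29 was -0.14. In HT29 replicate 2 in 2D and replicate 4 in 3D have no partner of the same number. The blocked effect in that line therefore rests on replicates 1 and 3. With the block 6, 5, 7 and 5 ERBB genes were called in HT29, LS513, HCT116 and LS174T and 4 for the interaction, where ERBB3 (0.24), TGFA (0.065) and EPGN (0.14) lost and BTC (0.035) gained the call. Depth limits EPGN, BTC and the neuregulins. The length of a gene was varied after the data were seen.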
